A study of Mus musculus with 40 samples.

Results

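The map described here is the list of consensus m6A peaks of the midbrain of young wild-type mice (Wt, 3 mo), set beside the RNA abundance measured in the input libraries of the same group. Its members are all peaks of that list, 13860 of the 41310 peaks in the 3 lists of a known group, and they were assigned by the authors to 7357 genes. Of the 20805 genes in the input table, 10857 counted as expressed in Wt 3 mo midbrain, at a mean normalised read count of at least 50. A peak was present on 5919 of these expressed genes and 4938 had none. A further 1249 genes with a peak were under the abundance limit and 189 were not listed in the input table.

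RNA was taken from the midbrain of male Wt (C57BL/6J) mice and of male mice homozygous for A30P alpha-synuclein (A30P alpha-synuclein +/+, here aSyn Tg). Both genotypes were taken at 3 mo and 15 mo, and the Wt mice were littermates. For every animal, RNA bound by an antibody against m6A (meRIP) was sequenced beside the unselected RNA (input). The labels list 5 input and 5 meRIP samples for Wt at 3 mo, out of 40 samples, and the input table holds 4 of the 5 Wt 3 mo input libraries. The groups used here are Wt 3 mo, Wt 15 mo and aSyn Tg 3 mo. The aSyn Tg mice carry the human transgene under the Thy-1 promoter, which is active in many neurons, although the strain name in the methods points to a Th promoter. Peaks were deposited as a single list per group over all its animals, so a fold enrichment has no SD and no n, and no test of m6A between animals was possible.

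N6-methyladenosine is written on nascent RNA by a complex built around Mettl3 and Mettl14, mainly at adenosines within a short consensus sequence. It is removed by the demethylases Fto and Alkbh5 and read by YTH domain proteins, which couple the mark to splicing, translation and decay. In many tissues, the mark lies in long exons and near stop codons, and in brain it has been described on many transcripts of synaptic and developmental genes. Immunoprecipitation reports the mark as an enrichment of a region over input, which depends on the fraction of molecules that are methylated and on the number of sites in the fragment.

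Sequencing depth of the input was 9195756, 3626502, 5887887 and 3810191 reads in the Wt 3 mo libraries 2, 3, 4 and 5. Markers of midbrain dopaminergic neurons were present in all 4, with Th at 24.5 to 40.7 and Slc6a3 at 29.5 to 43.8 RPKM (reads per kilobase of exon, scaled to the reads of the library), and the serotonergic marker Tph2 was at 30.3 to 38.9 RPKM. Of the 4 cortical and hippocampal markers, Emx1 was not listed, Tbr1 reached at most 0.251 RPKM, Neurod6 was at 1.87, 0.128, 1.03 and 1.22 RPKM and Slc17a7 at 12.2, 4.30, 1.35 and 4.87 RPKM in libraries 2, 3, 4 and 5. Both were highest in library 2, and their part in the results was not tested. Library 3 stood apart in genes of the thalamus, with Prkcd at 15.0 RPKM against 3.52 to 5.49 in the other 3 libraries. The choroid plexus gene Ttr was at 8.6 RPKM there against 0.443 to 0.734. Kl, another choroid plexus marker, did not follow it, at 0.676, 0.355, 0.346 and 0.394 RPKM in libraries 2, 3, 4 and 5, and Folr1 had no value. Without library 3, 54.4% of expressed genes had a peak (54.5% with it), and the difference between the highest and lowest groups of level described below was 10.1 percentage points (9.78 with it). The tissue is bulk, and in it fewer cells of a type and less RNA per cell cannot be told apart.

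To show what the antibody enriched, 30-base windows are given around the motif nearest to the centre of the most enriched peak of 11 genes that represent strong, middle and weak enrichment across the families described below. The motifs searched on the transcript strand were GGACT and GGACA as well as GGACC and AGACT, written as DNA, and capitals mark the motif. All windows are 5′ to 3′ on the transcript, in build GRCm38 (mm10). Of 157 named genes searched, 131 had such a motif within 100 nt of the peak centre and 26, among them Srcin1, Sema6c and Sox9, had none. Over all 12265 peak windows, 79.2% held any of the 4 motifs, and windows outside peaks were counted for single motifs only. The windows shown are all of genes with a motif.
Tenm4: gcctgcgggcctGGACAgatggggaaaagc
Shank2: accagatgtggcAGACTggctggaaagtct
Celsr3: gcaactctcaagGGACCccctcttgccatc
Kcnh1: ggggagcttgacGGACTggagagactttct
Unc13c: cgaggaagaggaGGACTactgtgaaccagt
Jun: cgttttgagaacAGACTgtcagggctgagg
Hist1h1c: cacagttaagttGGACTcgggactgagacg
En1: caccacggttcaGGACAaagacgagagcga
Ythdf2: catggtaacaagAGACTggatgccgcctat
Meg3: atccctacccatGGACCctgagacttgggg
Apoe: ggcactgatggaGGACActatgacggaagt

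The windows of the synaptic genes lie at chr7:96906428-96906457 (plus strand, within 200 nt of the stop codon) for Tenm4, a teneurin adhesion receptor, at chr7:144420949-144420978 (plus, near the stop codon) for Shank2, a postsynaptic scaffold, and at chr9:108849110-108849139 (plus, coding sequence) for Celsr3, an atypical cadherin. Kcnh1, a voltage-gated potassium channel, has its window at chr1:192506645-192506674 (plus, 3′ UTR) and Unc13c, a vesicle priming factor, at chr9:73930968-73930997 (minus, coding sequence). The nuclear genes are Jun at chr4:95050245-95050274 (minus, near the stop codon), Hist1h1c at chr13:23740009-23740038 (plus, 3′ UTR) and En1 at chr1:120607156-120607185 (plus, near the stop codon). The remaining windows are Ythdf2 at chr4:132204510-132204539 (minus, coding sequence), the noncoding Meg3 at chr12:109571535-109571564 (plus) and Apoe at chr7:19697074-19697103 (minus, coding sequence). The motif of Kcnh1 was 1 nt from the peak centre, that of Tenm4 3 nt and that of Jun 85 nt. A match is a description of the letters in a window and does not place a methylated base.

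A peak was present on 54.5% of the expressed genes (5919 of 10857, 95% Wilson interval 53.6 to 55.5%, over genes). The interval covers counting error over the genes of a single pooled list, which are not independent replicates, and no spread between animals. The fold enrichment of the 13860 peaks, the ratio of immunoprecipitated to input reads, had a median of 4.70, with quartiles of 3.26 and 6.91 and a range of 1.20 to 75.8. The highest fold enrichment of a gene is used as its measure of methylation, and its median over the methylated genes was 5.71. Genes were called strong at a highest fold enrichment of at least 10, weak below 3 and middle in between. There were 754 strong genes (12.7% of the methylated genes), 4418 middle genes (74.6%) and 747 weak genes (12.6%). Among genes under the abundance limit, 12.6% of 9948 had a peak.

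The 4 classes differed in abundance and in exon structure. Their median input level was 6.48 ± 0.146 RPKM in strong genes, 9.50 ± 0.210 in middle genes, 20.4 ± 0.256 in weak genes and 8.46 ± 0.112 in genes without a peak (mean and SD of the medians of the 4 libraries). Weak genes were therefore the most abundant class, and the medians of the single libraries did not overlap between the classes. The longest exon had a median of 2783 nt in strong genes, 2066 nt in middle genes, 1329 nt in weak genes and 1016 nt in genes without a peak. Abundance ran against enrichment among methylated genes, while genes without any peak were neither the least nor the most abundant in RPKM. By median normalised count, which is not divided by exon length, genes without a peak were the lowest class at 160. That count was 189 in strong, 259 in middle and 497 in weak genes.

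By level, the expressed genes were sorted into 5 equal groups of RPKM in each library. From the lowest to the highest group, 48.2, 52.8, 55.7, 58.2 and 57.9% of genes had a peak (SD over the 4 libraries 0.204 to 0.826). The highest group exceeded the lowest by 9.78 ± 0.314 percentage points (SD, n = 4 libraries), with 9.75, 9.66, 10.2 and 9.48 points in libraries 2, 3, 4 and 5. The median enrichment per gene ran the other way, at 6.86, 6.18, 5.81, 5.47 and 4.40. Strong genes made up 23.7% of the methylated genes in the lowest group and 5.57% in the highest, and weak genes 3.23% and 29.3%. The direction of the first relation depended on the peaks counted. With peaks of a fold enrichment of at least 4 alone, the shares were 41.7, 43.0, 42.7, 41.1 and 32.2%, and the highest group lay 9.48 points below the lowest. The difference of 9.78 points was 5.27 with peaks of a fold enrichment of at least 2 and 1.90 with peaks of a single exon block. It was 31.6 points with the level in CPM (reads scaled to the library, not divided by exon length), 32.2 with genes of a mean count of at least 10 included and 46.0 with no abundance limit.

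**Figure D1:**
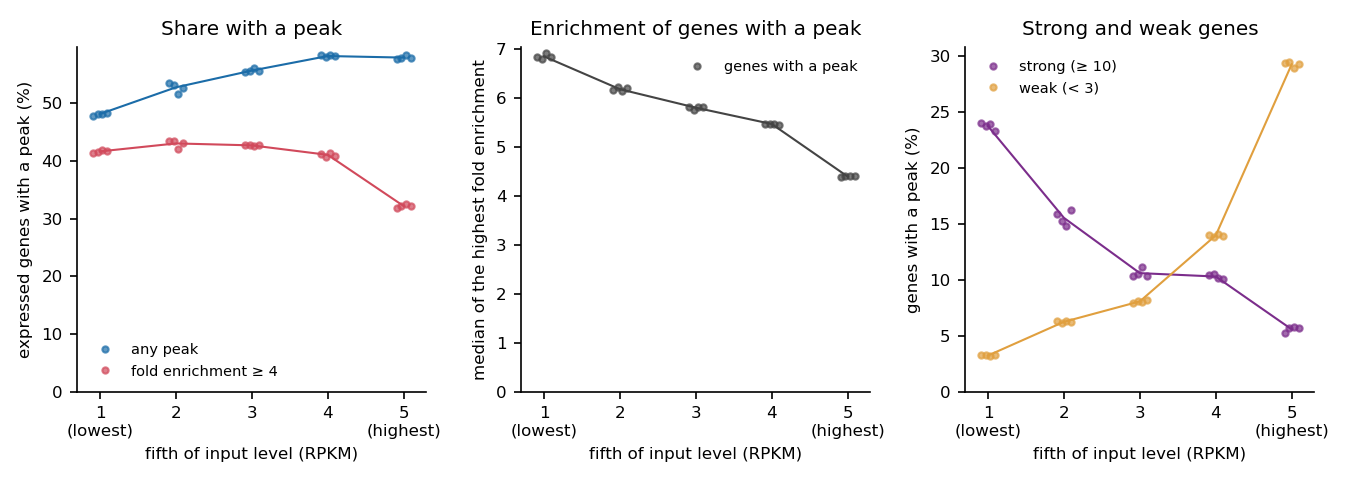
Share of expressed genes with any peak or with a peak of fold enrichment of at least 4 (left, %), median highest fold enrichment of genes with a peak (middle) and share of genes with a peak that are strong or weak (right, %), by group of input level, with 1 point per Wt 3 mo library and lines through the means. Any peak was found on 48.2% of genes in the lowest group and 57.9% in the highest, while the median enrichment was 6.86 in the lowest and 4.40 in the highest.

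Over the 5915 expressed genes with a peak and an exon length, the highest fold enrichment and the input level had a Spearman correlation of -0.29 (-0.288, -0.283, -0.282 and -0.291 in libraries 2, 3, 4 and 5). This is a description across genes, which are not independent replicates, and it carries no p. Both measures share the Wt 3 mo input reads, since these stand under the ratio. With the level taken from the Wt 15 mo input, which is not in the ratio, the correlation was -0.28. Restricted to genes with a single peak it was -0.37, and with the median instead of the highest peak of a gene -0.40. The median normalised count was 497 in weak genes and 189 in strong genes, and the part of read depth in the calling of weak peaks was not tested.

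Of the methylated genes, 2961 (50.03%) had a single peak and 176 had 6 or more, up to 18. The median level was 8.45 RPKM in genes without a peak, 9.26 with 1 peak, 10.2 with 2, 10.4 with 3 to 5 and 15.9 with 6 or more. Genes with many peaks were thus more abundant and also longer, with a median exon length of 5167 nt at 1 peak and 10458 nt at 6 or more. Their median highest fold enrichment was 4.65 at 1 peak, 6.12 at 2, 7.28 at 3 to 5 and 8.29 at 6 or more. The highest value is a maximum over the peaks of a gene and tends to rise with their number by construction. This rise therefore does not show that single peaks of such genes were more enriched. The level of genes with 6 or more peaks over that of genes with 1 was 1.72, and it turned to 0.729 when peaks of a fold enrichment of at least 4 were counted, which left 23 genes with 6 or more.

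The gene with the most peaks was Kmt2d, a histone H3 lysine methyltransferase, with 18. Its level was 30.5, 29.3, 30.8 and 29.2 RPKM in libraries 2, 3, 4 and 5, and its highest fold enrichment was 6.86. Zfhx3, a zinc finger homeobox factor, had 15 peaks and a highest fold enrichment of 10.3. Pclo and Bsn, the giant scaffolds of the presynaptic active zone, had 14 and 12 peaks with highest values of 9.62 and 9.07. The level of Pclo was 43.0, 47.0, 45.7 and 46.4 RPKM. Spen, a transcriptional corepressor, had 13 peaks, Kmt2a and Zfhx4 had 12 each, Ank3 had 11, and the noncoding Meg3 had 10. Those named comprise nuclear regulators, scaffolds of the synapse and axon, and 1 noncoding RNA.

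By groups of equal size of the longest exon, from a median of 415 nt to 4349.5 nt, 26.1, 48.8, 59.9, 67.9 and 78.5% of protein-coding genes had a peak. The median highest fold enrichment was 4.02 in the group of the shortest and 6.87 in the group of the longest. By total exon length the share was 36.6% in the shortest group and 69.4% in the longest, and by level in CPM it was 40.3% in the lowest group and 72.0% in the highest. Length and the level in RPKM are linked, since RPKM divides by exon length. Sorted by both, the share was 22.4% at the lowest level and shortest exon, 69.6% at the lowest level and longest exon, 34.7% at the highest level and shortest exon and 87.6% at the highest level and longest exon. At every group of longest exon, the highest level had a larger share than the lowest. These shares count genes with any peak, whatever its enrichment.

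Gene types followed the same line. Among protein-coding genes, 56.2% of 10344 had a peak, against 43.4% of 83 long intergenic noncoding RNAs, 36.0% of 50 processed transcripts and 33.3% of 45 antisense RNAs. The sources do not say whether counting used strand, so reads of an antisense RNA and its partner may not be told apart. None of 36 small nucleolar RNAs, 34 ribosomal RNAs and 10 mitochondrial transfer RNAs had a peak. Other short RNAs without a peak were abundant per kilobase, with the Y RNAs Rny3 at 3732 ± 1219, Rny1 at 2912 ± 896 and the RNase P RNA Rpph1 at 2796 ± 266 RPKM (SD, n = 4), and the preparation kept the large RNA fraction before fragmentation.

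The position of 12540 peaks (90.5%) was placed on a single transcript per gene. On coding transcripts, 25.8% of the centres lay within 200 nt of the stop codon, 46.8% elsewhere in the coding sequence, 21.4% in the 3′ UTR and 6.0% in the 5′ UTR. Strong peaks were nearer to the stop codon than weak ones. Within 200 nt lay 35.5% of strong, 26.4% of middle and 18.8% of weak peaks, and 84.7, 66.7 and 43.7% of them were in the last exon. The 5′ UTR held 3.87% of strong and 8.73% of weak peaks. Median fold enrichment was 5.35 near the stop codon, 4.96 in the 3′ UTR, 4.36 in the coding sequence and 4.05 in the 5′ UTR. An exon of at least 400 nt held 98.6% of strong, 95.6% of middle and 76.9% of weak peak centres, while such exons made up 67.7% of the transcript bases of genes with a peak and 48.9% of those without.

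**Figure D2:**
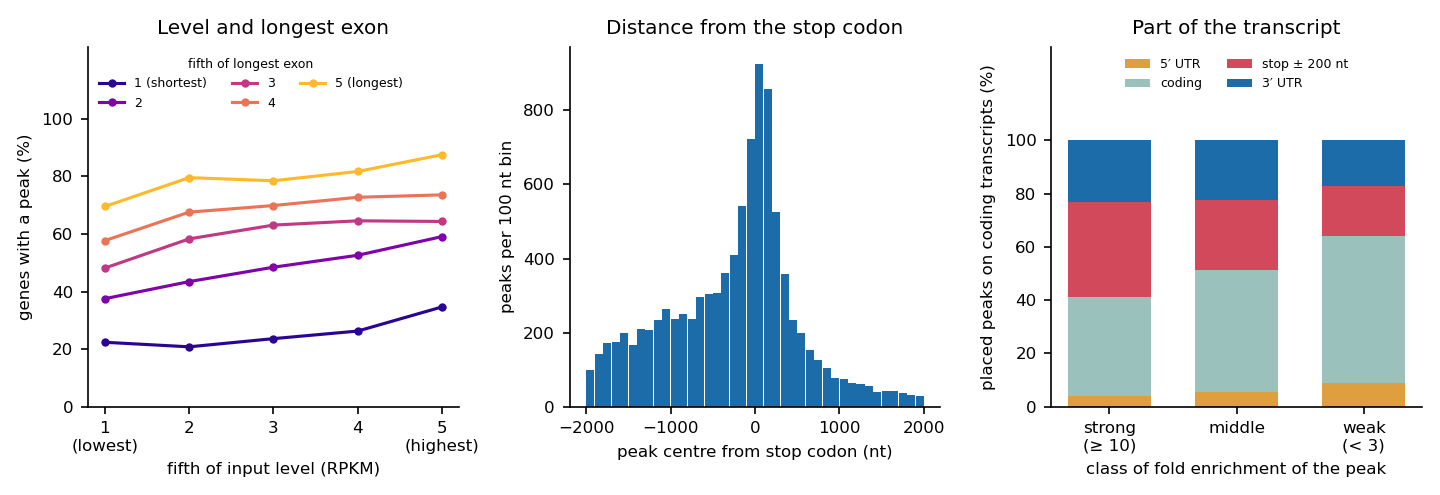
Share of genes with a peak by group of input level and of longest exon (left, %), number of peaks per 100 nt by distance of the peak centre from the stop codon (middle, nt) and position of strong, middle and weak peaks on coding transcripts (right, % of placed peaks). Peaks crowd around the stop codon, and 35.5% of strong peaks against 18.8% of weak peaks lie within 200 nt of it.

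The motifs were counted within 100 nt of the centre of 12265 peaks, on the transcript strand. GGACT was present in 33.5% of the peak windows, in 17.9% of windows of the same length outside peaks in methylated genes and in 18.6% of windows in genes without a peak. By class it was in 39.0% of strong, 34.6% of middle and 26.5% of weak peaks. GGACA was in 36.0% of peak windows, against 22.8% outside peaks and 23.6% in genes without a peak, GGACC in 28.1% against 19.2 and 20.1%, and AGACT in 30.4% against 19.7 and 20.6%. The letters of GGACT reversed (TCAGG) were in 23.0% of peak windows against 22.6 and 22.2%, and those of the opposite strand (AGTCC) in 17.1% against 17.6 and 16.8%. GGACT was most dense 30 nt before the centre, at 2.52 per kilobase, against 1.08 at 300 nt or more. Whole transcripts differed little, with a median of 4 GGACT per transcript in genes with a peak and 3 in genes without.

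Among strongly methylated genes, 362 of 754 (48.0%) were also strong in both the Wt 15 mo and the aSyn Tg 3 mo list. The highest values that were repeated there belonged to Myo7a, an unconventional myosin, with 25.7 in the Wt 3 mo list, 21.8 in Wt 15 mo and 22 in aSyn Tg 3 mo, and to Tenm4 with 20.6, 22.8 and 20.1. Gli3, a hedgehog pathway transcription factor, had 18.6, 30.4 and 22, and the orphan receptor Gpr61 had 21.8, 21.1 and 17.2. Jun, a transcription factor of the immediate early response, had 22.2, 14.8 and 16.2. Shank2 had 18, 15.3 and 16.2, Celsr3 16.7, 16.2 and 15.6, and Sema6c, a guidance semaphorin, 15.5, 15.2 and 19.6. Pdgfra, the growth factor receptor of oligodendrocyte precursors, had 14.9, 16.8 and 15.6. The levels of these genes lay on both sides of the median of all expressed genes (9.25 RPKM), from 2.91 RPKM for Gli3 to 16.5 for Jun. Tenm4 was at 13.9, 14.3, 14.1 and 12.7 RPKM in libraries 2, 3, 4 and 5, Shank2 at 12.8, 14.6, 15.5 and 13.2, Celsr3 at 13.3, 12.1, 13.7 and 12.9, Jun at 15.4, 17.7, 15.7 and 17.2 and Sema6c at 4.98, 7.43, 5.84 and 4.91.

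The 10 expressed genes with the highest fold enrichment in the Wt 3 mo list, predicted genes and clone names left out, were Trim25 (75.8), Zfp568 (54.5), Ubn2 (49.7), Nipbl (45.0), Srcin1 (43.4), Mob3b and Cdh23 (42.6 each), Lcorl (41.8), and Rbak and Plod1 (41.1 each). Their median was 43.0 in the Wt 3 mo list, against 8.16 in the Wt 15 mo list, which holds 9 of them, and 8.32 in the aSyn Tg 3 mo list, which holds 7. Trim25, a ubiquitin ligase of innate immunity, had 75.8, 41.2 and 11.9, and Zfp568, a zinc finger repressor, had 54.5 and 8.78 with no peak in aSyn Tg 3 mo. Both were scarce, with Trim25 at 3.53, 3.21, 2.66 and 2.42 RPKM and Zfp568 at 1.57, 1.61, 1.48 and 1.93. Chosen the same way, the 10 highest genes of the Wt 15 mo list had a median of 9.04 in the Wt 3 mo list and 52.4 in their own, and the 2 sets shared 0 genes. These genes were chosen for their values in 1 list, and the values are a description. Strong genes that were strong in all 3 lists had a median peak width of 600 nt and a median count of 285, against 359.5 nt and 130 for the other strong genes.

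Several of the most abundant methylated transcripts were weakly enriched. The lowest highest fold enrichment among expressed genes with a peak was that of Apoe, the astrocytic lipid carrier, with 1.32 in the Wt 3 mo list, 1.46 in Wt 15 mo and 1.43 in aSyn Tg 3 mo. Its level was 356, 370, 361 and 402 RPKM. St13, a cochaperone, followed with 1.33, 1.46 and 1.65. Zfr, Rasgrf1, Nedd8, Aamp, Cdc37l1, Rsrc2 and Rph3a were also among the lowest 10, with values of 1.36 to 1.44. Of the lowest 10, 8 had a peak in the Wt 15 mo list and none there exceeded 1.85. Among the 10 most abundant genes with a peak, Sparcl1 (2.17), mt-Nd2 (2.16), Hsp90ab1 (1.87), Apoe (1.32) and Kif5a (2.56) were weak, Malat1 (3.65) and Cplx1 (3.2) were just above the limit, and Meg3 (9.34), Nap1l5 (7.44) and Tubb4a (9.91) were higher. Tubb4a was at 2.95 in the Wt 15 mo list and 3.99 in the aSyn Tg 3 mo list.

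**Figure D3:**
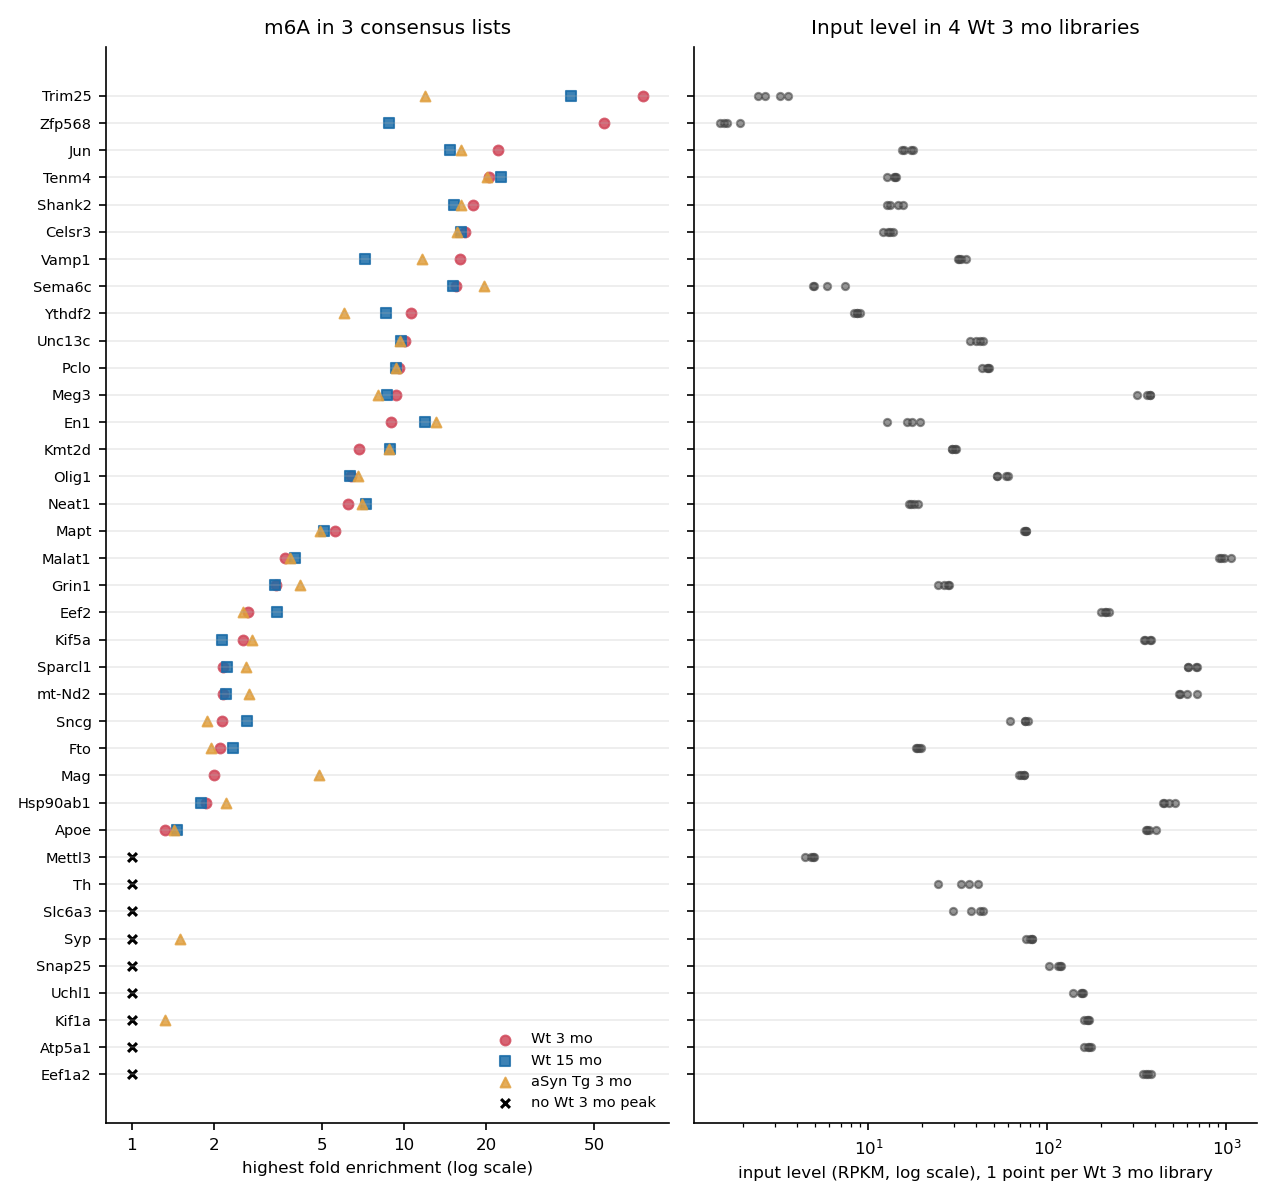
Highest fold enrichment in the Wt 3 mo, Wt 15 mo and aSyn Tg 3 mo lists (left, log scale, genes without a Wt 3 mo peak marked by a cross drawn at 1) and input level in the 4 Wt 3 mo libraries (right, RPKM, log scale) of named genes, in order of Wt 3 mo enrichment. The libraries of a gene lie close together, and genes at the weak end such as Apoe (1.32) reach levels far above those of Tenm4 (20.6).

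Gene families were compared through 43 lists, of which 23 had a larger share of methylated members than all expressed genes (54.5%). Beside the counts stands the number that the shares of the members' own groups of level and exon length add up to, called the length-matched number. It was exceeded in 24 of the 43 lists, and in 24 when the longest exon replaced exon length and protein-coding members alone were counted, with 6 lists on the other side of their number. Lists were chosen with earlier results of these data known, share some genes and were not tested. The shares spanned nearly the whole scale, from all 24 glutamate receptors and both m6A erasers to 1 of 33 cytosolic ribosomal proteins.

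Regulators of transcription were widely methylated. Of the expressed zinc finger proteins named Zfp, mostly DNA-binding repressors, 216 of 252 had a peak, against a length-matched 133, with a median highest fold enrichment of 7.19 and 44 strong members. Their median level was 5.69 RPKM, below the 9.25 of all expressed genes. Matched by the longest exon, the number was 165, against 213 of 249 protein-coding members with a peak. Related members share sequence, so their reads may be split between them. Of histone methylation and chromatin remodelling genes, 56 of 64 had a peak (length-matched 46.7), led by Ep300 (18.2), a histone acetyltransferase, and Chd7 (13.7), a chromatin remodeller. At the other end, the remodeller ATPases Smarca4 (1.64) and Smarca2 (1.97) were weak at 58.0 ± 1.78 and 41.8 ± 1.503 RPKM, and Hdac5 and Kdm1a had no peak.

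Immediate early genes, which neurons induce within minutes of activity, had a peak in 13 of 14 expressed members (length-matched 6.72), with a median of 7.74. Beside Jun (22.2), the neurotrophin Bdnf had 12.1 and Jund 9.47, while Fos had none at 5.80 ± 1.80 RPKM. Histones had a peak in 6 of 14, which was above the length-matched 5.37 and below the 8.39 matched by the longest exon, with the linker histones Hist1h1c at 11.4 and H1f0 at 10.1 and another linker histone, Hist1h1e, at 1.65. Receptors of the Wnt, Notch and hedgehog pathways had a peak in 15 of 18 (length-matched 9.94, and 11.3 by the longest exon). Axon guidance ligands and receptors had a peak in 46 of 57 (length-matched 34.9), led by Sema3a (16.1), Sema6c (15.5) and Nrp1 (14.8), a semaphorin receptor. Sema3a was at 0.868 ± 0.348 RPKM and had no peak in the Wt 15 mo list.

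All 24 expressed glutamate receptor genes had a peak (length-matched 16.5), with a median of 7.63. Their values ranged from 12.1 for Grin3a and Grik3 to 3.40 for Grin1, the obligatory NMDA receptor subunit. Grin1 had 3.40, 3.36 and 4.14, at 27.7, 28.2, 26.4 and 24.4 RPKM. Voltage-gated sodium, calcium and potassium channels had a peak in 37 of 39 (length-matched 25.9; median 7.97), with Cacna1h at 15.7 and Kcnd3 at 14.1. Cacna1a, the pore of P/Q-type calcium channels, was lowest among those with a peak at 2.71, and Kcnh2 and Kcnh7 had none. Receptors for GABA and glycine had a peak in 12 of 16 (length-matched 9.47) and a lower median of 4.99. Gabrq had 9.91 at 5.35 ± 0.250 RPKM and Gabra3 had no peak.

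Synaptic adhesion genes had the highest median of any list, 8.51, with a peak in 55 of 62 (length-matched 43.3) and 19 strong members. Behind Tenm4 and Celsr3 stood Mdga1 (16.3) and the neuroligin Nlgn3 (13.7). The weakest were Cadm3 (2.41) and Cdh2 (2.58), and Cadm4 had no peak at 100.7 ± 6.31 RPKM. Clustered protocadherins, which give neurons individual surface identities, had a peak in 27 of 28 (length-matched 14.3, and 17.7 by the longest exon). Genes of the alpha and gamma clusters share their last exons, and peaks or reads of that part cannot be assigned to a single member. Their median level was 3.67 RPKM. Nonclustered protocadherins had a peak in 10 of 11 (length-matched 7.67).

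Postsynaptic scaffolds had a peak in 32 of 40 with a median of 6.46 (length-matched 28.2), and the presynaptic release machinery in 48 of 67 with a median of 3.84 (length-matched 43.9). The median level was 18.1 RPKM in the scaffold list and 38.5 RPKM in the presynaptic list, and the difference between these lists was not tested. Among the scaffolds, Shank2 had 18, Cnksr2 13.4 and Agap2 11.3, while Dlg4, the core scaffold PSD-95, had 3.38, and Cyfip2 had none at 98.6 ± 3.96 RPKM. In the presynaptic list, Unc13b (33.2), Vamp1 (16), Doc2b (11.5) and Unc13c (10.1) were strong. Unc13c was repeated in the other lists with 9.74 and 9.70, whereas Unc13b was at 6.95 and 10.4. The level of Unc13c was 43.6, 42.1, 39.9 and 36.8 RPKM. Vamp1, a vesicle SNARE, had 16 in Wt 3 mo, 7.16 in Wt 15 mo and 11.6 in aSyn Tg 3 mo, at 35.2, 33.0, 31.7 and 32.1 RPKM. Its SNARE partner Snap25 had no peak in any of the 3 lists at 118, 114, 102.2 and 118 RPKM. Syp, the vesicle protein synaptophysin, had none in Wt 3 mo and Wt 15 mo and 1.5 in aSyn Tg 3 mo, at 80.1, 81.9, 75.8 and 81.9 RPKM. Of the 48 methylated presynaptic genes 17 were weak, against 2 of 32 scaffolds. Weak genes were 12.6% of all methylated genes. Their share was 29.3% in the highest group of level, where the presynaptic median lies, and 14.0% in the group below, where the scaffold median lies.

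Spectrins, ankyrins and neurofilaments, which form the axonal scaffold, had a peak in 19 of 20 (length-matched 15.8), with a median of 4.87 and 103 peaks in all. Sptan1 was the exception, at 104 ± 2.70 RPKM. Kinesins and dyneins had a peak in 26 of 43 (length-matched 26.3, and 23.6 by the longest exon), with a median of 3.65 and 10 weak members. The kinesins Kif26a (14.5) and Kif26b (10.3) were strong at 2.33 ± 0.354 and 7.80 ± 0.771 RPKM. Kif5a, a motor of axonal transport, had 2.56 at 349, 373, 348 and 377 RPKM, and Kif1a, the motor of synaptic vesicle precursors, had no peak in Wt 3 mo or Wt 15 mo and 1.32 in aSyn Tg 3 mo, at 167, 168, 161 and 171 RPKM. Tubulins and actins had a peak in 11 of 18 members (length-matched 7.25, and 9.69 by the longest exon), above all expressed genes. Their share was below that of all genes (44.4% against 53.3%) when peaks below a fold enrichment of 2 were left out.

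Cytosolic ribosomal proteins had a peak in 1 of 33 expressed members, against a length-matched 13.1, and the exception, Rps4l (3.82), was placed on a noncoding transcript. A further 45 ribosomal protein genes were under the abundance limit, none of them with a peak. Rplp1 at 116 ± 8.32, Rpl8 at 106 ± 7.05 and Rpl4 at 90.0 ± 3.62 RPKM had no peak in any of the 3 lists. Their longest exon had a median of 375.5 nt. Nuclear-encoded respiratory chain subunits had a peak in 7 of 72 (length-matched 29.6), with Ndufa9 (8.49) and Atp5sl (8.23) the highest. Atp5a1, the alpha subunit of ATP synthase, had none in the 3 lists at 168, 175, 161 and 171 RPKM. Of the 7 mitochondrially encoded genes only mt-Nd2 had a peak (length-matched 2.57), with 2.16, 2.22 and 2.69 in the Wt 3 mo, Wt 15 mo and aSyn Tg 3 mo lists, at 605, 550, 541 and 686 RPKM.

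V-ATPase subunits, which acidify vesicles and lysosomes, had a peak in 2 of 16 (length-matched 8.44), both weak. The proteasome had a peak in 9 of 37 (length-matched 16.8), of which 6 were weak. Lysosomal enzymes and membrane proteins had a peak in 11 of 38 (length-matched 19.9), the highest being Neu1 (8.44), and Psap had none at 178 ± 9.76 RPKM. Translation factors had a peak in 18 of 57 (length-matched 29.6). The neuronal elongation factor Eef1a2 had none at 357, 364, 340 and 378 RPKM, and Eef2 had 2.68 at 210, 211, 198 and 220 RPKM, while Eif4g1, the scaffold of the cap-binding complex, had 10.8. Splicing factors had a peak in 15 of 38 (length-matched 22), E2 enzymes of ubiquitin and related proteins in 9 of 25 (length-matched 13.2) and aminoacyl-tRNA synthetases in 13 of 33. The synthetases were below the length-matched 18.6 but at 12.7 when the longest exon was used.

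Mitochondrial ribosomal proteins had a peak in 22 of 62 (length-matched 26.1), more than their cytosolic counterparts. Chaperones had a peak in 33 of 69 (length-matched 37.2), Rab GTPases in 20 of 43 (length-matched 22.3) and G protein subunits in 11 of 21 (length-matched 12.2), which are below the share of all genes here and above it when genes with a mean count of at least 10 were included. Hsp90ab1, the constitutive cytosolic chaperone, had 1.87 at 446, 479, 445 and 514 RPKM, and Rab3a, the Rab of synaptic vesicles, had 1.96 at 134 ± 5.27 RPKM. Solute carriers had a peak in 100 of 176, above the length-matched 97.1 and below the 102.6 matched by the longest exon.

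Of the 12 expressed dopaminergic markers 5 had a peak (length-matched 6.04), a share below that of all genes (41.7%) and above it with genes of a mean count of at least 10 included (46.7% against 43.7%). Those with a peak were transcription factors and Sncg. En1, which specifies midbrain neurons, had 8.96 in Wt 3 mo, 11.9 in Wt 15 mo and 13.1 in aSyn Tg 3 mo, at 16.4, 12.7, 19.3 and 17.5 RPKM. En2 had 6.78, Lmx1b 5.13 and Nr4a2 4.89. Sncg had 2.14, 2.64 and 1.89 at 77.9, 61.8, 74.8 and 75.2 RPKM. The genes of dopamine synthesis and transport had no peak in any of the 3 lists, as for Th, the rate-limiting enzyme, at 33.0, 24.5, 36.2 and 40.7 RPKM, and Slc6a3, the dopamine transporter, at 37.3, 29.5, 42.2 and 43.8 RPKM. Ddc, Slc18a2, Aldh1a1, Ret and Drd2 likewise had none. The dopaminergic factors Foxa1 and Foxa2 had a peak (18 and 9.47) but were under the abundance limit, as were Lmx1a and Pitx3, which had none.

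Genes linked to Parkinson disease had a peak in 13 of 26 (length-matched 15.3, and 12.8 by the longest exon), with a median of 3.84 and no strong member. Mapt, which encodes tau, had 6 peaks and 5.58, 5.07 and 4.91, at 74.0, 74.8, 75.8 and 75.8 RPKM. Sipa1l2 was the highest at 6.11. Uchl1, an abundant neuronal deubiquitinase, had no peak in the 3 lists at 158, 154, 139 and 156 RPKM, nor had Pink1 at 107 ± 1.52 RPKM.

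Of 26 myelin and oligodendrocyte genes, 18 had a peak (length-matched 13.6), 9 of them weak. The lineage factors Olig2 (9.12), Nkx6-2 (8.47) and Olig1 (6.38) were among the highest, with Olig1 at 60.4, 51.9, 58.8 and 52.6 RPKM. Mag, a myelin adhesion protein, had 2.00 in Wt 3 mo, none in Wt 15 mo and 4.86 in aSyn Tg 3 mo, at 73.9, 69.7, 71.5 and 73.7 RPKM. Astrocyte genes had a peak in 17 of 29 (length-matched 15.9, and 17.2 by the longest exon), which is above the share of all genes but below it without peaks under a fold enrichment of 2 (51.7% against 53.3%). The astrocytic factor Sox9 had 11.6 and the potassium channel Kcnj10 8.54, while Sparcl1 had 2.17 at 608, 674, 609 and 685 RPKM and Cst3 had none at 205 ± 7.44 RPKM. Endothelial and pericyte genes had a peak in 9 of 21 and immune genes in 7 of 15, near their length-matched 10.7 and 6.14.

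Neuropeptides and granins had a peak in 11 of 19 (length-matched 8.23, and 10.3 by the longest exon), with a median of 3.04. Without peaks under a fold enrichment of 2, their share was below that of all genes (47.4% against 53.3%). Vgf stood apart from the rest of this list at 12.6, with 17.8 in the Wt 15 mo list and 15.1 in the aSyn Tg 3 mo list, at 82.8 ± 5.74 RPKM. The next was the peptide convertase Pcsk2 at 6.29. Somatostatin (Sst, 1.78), chromogranin A (Chga, 2.37) and proenkephalin (Penk, 2.43) were weak.

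Of the m6A writer genes 7 of 9 had a peak (length-matched 5.36). Mettl3, the catalytic writer, had no peak in the 3 lists at 4.76, 4.94, 4.89 and 4.39 RPKM, nor had its partner Mettl14 at 6.54 ± 0.455 RPKM. Among those with a peak were Rbm15b at 33.9 and its paralogue Rbm15 at 8.77, which recruit the complex to RNA, Zc3h13 at 6.38, Cbll1 at 5.26 and Wtap at 5.25. Rbm15b was at 19.9 in Wt 15 mo and 10.7 in aSyn Tg 3 mo. Both erasers had a peak (length-matched 1.52), and both were weak. Fto had 2.11 in Wt 3 mo, 2.36 in Wt 15 mo and 1.95 in aSyn Tg 3 mo, at 18.7, 18.4, 19.7 and 19.1 RPKM, and Alkbh5 had 1.78, 2.02 and 3.29. Of 17 expressed readers 9 had a peak (length-matched 10.6). The cytosolic YTH readers had all, with Ythdf2, which directs methylated RNA to decay, at 10.6, Ythdf3 at 8.40 and Ythdf1 at 5.37, and the nuclear Ythdc1 had 6.08. Ythdf2 was at 8.61 in Wt 15 mo and 6.04 in aSyn Tg 3 mo, with a level of 8.61, 8.99, 8.62 and 8.27 RPKM. Ythdc2, Fmr1, Fxr1 and Elavl1 had none.

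Among 19 expressed noncoding RNAs of the list, 13 had a peak (length-matched 12.4 over the 18 with an exon length). The abundant nuclear Malat1 had 4 peaks with 3.65, 3.96 and 3.81 in the Wt 3 mo, Wt 15 mo and aSyn Tg 3 mo lists, at 926, 966, 911 and 1066 RPKM. Meg3, an imprinted RNA, was both abundant (317, 373, 358 and 373 RPKM) and enriched, with 9.34, 8.67 and 8.04. Neat1, the scaffold of paraspeckles, had 4 peaks with 6.23, 7.22 and 7.01 at 19, 16.8, 18 and 17.3 RPKM. Peg13 (12.4) and Tug1 (9.03) were also repeated, at 13.4 and 8.34 in the Wt 15 mo list. Pantr1 had 33.9 in Wt 3 mo, no peak in Wt 15 mo and 15.4 in aSyn Tg 3 mo. Rmrp had none at 824 ± 94.1 RPKM, nor had Gas5 and Firre.

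Set beside the other lists, most of the Wt 3 mo map was found again. Of the 13860 peaks, 86.4% overlapped a Wt 15 mo peak by at least 1 base and 82.7% an aSyn Tg 3 mo peak, and the reverse overlap covered 85% of the Wt 15 mo list and 87.9% of the aSyn Tg 3 mo list. Of the expressed genes with a peak, 94.4% were listed in Wt 15 mo and 91.8% in aSyn Tg 3 mo. Over all expressed genes, 54.9% had a peak in Wt 15 mo and 52.7% in aSyn Tg 3 mo. By class of the Wt 3 mo list, 98.5% of strong, 95.4% of middle and 83.8% of weak genes were listed in Wt 15 mo, and 97.5, 93.4 and 76.6% in aSyn Tg 3 mo. A peak in all 3 lists was carried by 5313 expressed genes, and 4428 of the 4938 genes without a Wt 3 mo peak (89.7%) had none in the other lists either. Weak genes stayed weak in all 3 lists in 304 of 747 cases (40.7%).

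The highest fold enrichment of shared genes had a Spearman correlation of 0.84 between Wt 3 mo and each of the other lists (5585 genes with Wt 15 mo and 5433 with aSyn Tg 3 mo), given across genes with no p. The median absolute difference was 0.24 on the log2 scale against Wt 15 mo and 0.21 against aSyn Tg 3 mo, and 5.44 and 4.16% of genes differed by over 2-fold. Differences were larger in scarce genes. Against Wt 15 mo, the median absolute log2 difference was 0.40 in the lowest group of level and 0.20 in the highest, and 16.3 and 1.87% of genes differed by over 2-fold. The signed median was -0.12 against Wt 15 mo and -0.05 against aSyn Tg 3 mo on the log2 scale, with a negative value meaning lower in Wt 3 mo. Each list is a single value per gene, so none of these differences was tested.

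The share of input reads that falls on methylated genes was compared between animals, since every library gives a value. The gene set was defined by the Wt 3 mo list, called over input of the same group. Genes with a Wt 3 mo peak took 63.78, 64.28, 64.49 and 63.46% of the reads in Wt 3 mo libraries 2, 3, 4 and 5, against 63.05, 63.07, 63.32, 61.85 and 63.04% in Wt 15 mo libraries 1 to 5 and 62.32, 62.04, 62.84, 63.43 and 62.91% in the 5 aSyn Tg 3 mo libraries. The Wt 3 mo values lay above all values of both other groups, narrowly so against the highest aSyn Tg 3 mo library. The means were 64.0 ± 0.466% in Wt 3 mo (SD, n = 4), 62.9 ± 0.579% in Wt 15 mo (n = 5) and 62.7 ± 0.541% in aSyn Tg 3 mo (n = 5). The difference from Wt 15 mo was 1.14 percentage points and that from aSyn Tg 3 mo 1.29 points (exact permutation test, two-sided, p = 0.0159 each, the smallest p of this design, and adjusted p = 0.0317 over 4 tests). Both comparisons share the Wt 3 mo libraries. The genes were chosen in the group that was then tested, so these p-values cannot separate a difference between groups from that choice. For genes with a peak in all 3 lists, a set that also requires a Wt 3 mo peak, the differences were 1.09 and 1.26 points (exact permutation test, adjusted p = 0.0317 each).

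**Figure D4:**
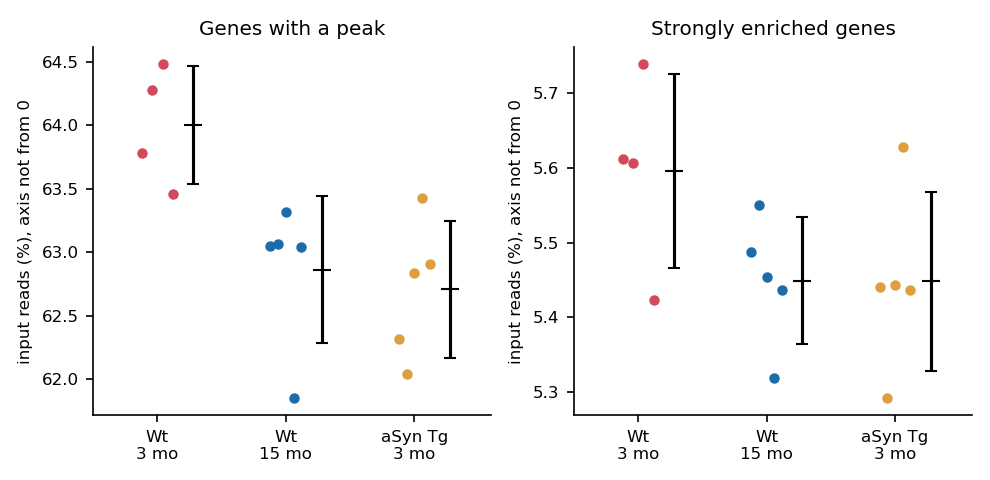
Share of input reads (%, axes not from 0) on expressed and other genes with a Wt 3 mo peak (left) and on strongly enriched genes (right), with 1 point per library and the mean ± SD beside each group. On the left the lowest Wt 3 mo library (63.46%) lies just above the highest aSyn Tg 3 mo (63.43%) and Wt 15 mo (63.32%) libraries, and on the right the groups overlap.

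With the genes of the Wt 15 mo list the difference from Wt 15 mo was 1.12 points (exact permutation test, adjusted p = 0.0317), and with the genes of the aSyn Tg 3 mo list that from aSyn Tg 3 mo was 1.18 points (adjusted p = 0.0635, no longer past 0.05). Mitochondrially encoded RNA, mostly without a peak, took 2.64 to 3.51% of the reads in Wt 3 mo, 3.19 to 4.47% in Wt 15 mo and 3.01 to 4.29% in aSyn Tg 3 mo. These ranges overlap, and the part of this RNA by itself was not tested. Without mitochondrial genes and the 10 most abundant genes, the differences were 0.595 points from Wt 15 mo and 0.664 points from aSyn Tg 3 mo (exact permutation test, adjusted p = 0.0317 each). Every gene set in this paragraph was chosen in a group that was then tested, so its p-values carry the limit given above. Leaving out single libraries gave differences of 0.883 to 1.32 and 1.13 to 1.47 points, and the adjusted p was 0.0476 without Wt 3 mo library 5 and 0.0571 to 0.0714 without any other library (exact permutation tests of smaller groups). For all genes with a fold enrichment of at least 10, whatever their level, the share was 5.60 ± 0.130% in Wt 3 mo, against 5.45 ± 0.0849% in Wt 15 mo and 5.45 ± 0.120% in aSyn Tg 3 mo. The groups overlapped, and the differences of 0.146 and 0.148 points did not pass the test (exact permutation test, adjusted p = 0.148 and 0.206). They passed when the strong genes of the other list were used, at 0.317 points with those of Wt 15 mo (exact permutation test, adjusted p = 0.0476) and 0.245 points with those of aSyn Tg 3 mo (adjusted p = 0.0317), and the first was 0.204 points without Wt 3 mo library 5 (adjusted p = 0.0476).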

How the data were processed

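Per the methods, RNA of midbrain was depleted of rRNA with RiboMinus, fragmented, split into input and immunoprecipitated parts, and sequenced as single-end reads (SMARTer Stranded Pico kit, with a TruSeq stranded mRNA kit also named for inputs and a small RNA kit in the labels). The authors filtered reads with Cutadapt and mapped them with STAR to mm10 (the submitters' notes name mm9 and DESeq). Gene counts came from featureCounts and peaks from MeTPeak. The input values the authors deposited are a signal, gene counts divided by a size factor per library. The fold enrichment the authors deposited is a ratio of immunoprecipitated to input reads, 1 value per peak over the pooled libraries of a group.

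The design had assumed deposited normalised counts, and whole reads were recovered from the step of each library (100% of 291270 values in 14 libraries, tolerance 0.01). RPKM was computed from these reads and the union of GENCODE M21 exons, available for 10843 of the 10857 expressed genes. The expression limit of 50 is that of the study. The Wt 3 mo libraries hold 3626502 to 9195756 reads. Intervals cover counting error only. Peak centres were placed on 1 transcript per gene, and motifs were read from GRCm38 with pysam 0.24.0. Shares of reads were compared with exact permutation tests and Benjamini-Hochberg adjustment over 4 tests. These p-values measure the spread between these samples, each labelled as a mouse's midbrain. Python 3.11.15, NumPy 2.4.6, pandas 2.3.3, SciPy 1.17.1 and matplotlib 3.10.9 were used, and the statistics were tested on simulated data. Alternatives varied the expression limit, the peak threshold, the unit of level, the windows, the gene sets and the libraries.

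Named genes are the 10 highest and lowest in enrichment, the 10 with most peaks, the 10 most abundant with and without a peak, up to 4 at each end of each list, all members of the short lists, and the genes strong in all 3 lists, which were added after their values were seen. Members, lists and rules were chosen with earlier results of these data known. The aSyn Tg columns were mapped to their group only, since their numbers are not all those of the labels. The aSyn Tg 15 mo libraries, a further peak list whose name gives no group and the authors' fold changes and p-values between groups were not used here. Some genes and sequences picked by these rules are not reported here.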

Additional observations from a re-analysis of the deposited data

Results flagged for a closer look

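Among 45 groups of libraries examined, 1 had a library far from the others, where chance flags about 1 in 20 groups. In Wt 15 mo, the share of reads on genes with a Wt 3 mo peak was 61.85% in library 4, with the next at 63.04% and the highest at 63.32%. That library also had the highest mitochondrial share, at 4.47% of its reads, and without it the difference between Wt 3 mo and Wt 15 mo was 0.883 points (exact permutation test, adjusted p = 0.0571).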

How the results depend on the processing

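The share of expressed genes with a peak, 54.5%, was 43.7% at a mean count of at least 10, 34.5% with no limit, 53.3 and 40.1% with peaks of a fold enrichment of at least 2 and 4, 50.4% with peaks of a single exon block, 55.9% without short, mitochondrial and pseudogene names and 56.2% for protein-coding genes. The last setting was chosen after seeing the data, as were the level from Wt 15 mo, the other gene sets and the count of peaks at 4. The difference between the highest and lowest group of level, 9.78 points, reversed to -9.48 at a fold enrichment of at least 4, and was 5.27 at 2, 1.90 with single-block peaks, 32.2 at a mean count of 10, 46.0 with no limit, 11.9 without short, mitochondrial and pseudogene names, 31.6 on the CPM scale and 7.88 with the Wt 15 mo level. The cause of the reversal was not tested. The correlation of enrichment and level, -0.29, was -0.33 at a mean count of 10, -0.34 with no limit, -0.25 and -0.14 at a fold enrichment of at least 2 and 4, -0.30 with single-block peaks, -0.18 on the CPM scale, -0.40 with the median peak and -0.37 for genes with 1 peak. The level ratio of genes with 6 or more peaks over 1 peak, 1.72, was 0.729 at a fold enrichment of at least 4. The number of lists above all genes, 23, was 19 at a fold enrichment of at least 2 and 29 at a mean count of 10. The share of peaks near the stop codon was 14.0 and 39.7% in windows of 100 and 400 nt and 29.4% at a fold enrichment of at least 4, and that of windows with GGACT was 19.9% within 50 nt of the centre and 36.0% at a fold enrichment of at least 4. Leaving out each Wt 3 mo library in turn gave a share of 54.4 to 54.6%, a difference between groups of level of 9.51 to 10.1 points and a correlation of -0.29 to -0.28.

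The read shares of genes with a peak missed an adjusted p of 0.05 with peaks of a fold enrichment of at least 2 (1.14 and 1.21 points against Wt 15 mo and aSyn Tg 3 mo, exact permutation test, adjusted p = 0.0635 each), with expressed genes alone in the total (1.13 and 1.26 points, adjusted p = 0.0635 each), with the genes of the aSyn Tg 3 mo list (1.18 points) and without any single library but Wt 3 mo library 5, where the smallest p is 0.0286 or 0.0357 (0.883 to 1.32 and 1.13 to 1.47 points). For strongly enriched genes, the differences passed with those of the Wt 15 mo list (0.317 points, exact permutation test, adjusted p = 0.0476) and of the aSyn Tg 3 mo list (0.245 points, adjusted p = 0.0317), and leaving out single libraries gave 0.0983 to 0.204 and 0.0994 to 0.205 points, the first passing without Wt 3 mo library 5. All these gene sets were chosen in a group that was then tested, and the p-values cannot separate a difference from that choice. With the replicate number as a block, the Wt 3 mo minus Wt 15 mo differences were 1.18 and 0.156 points (exact sign flips over 4 pairs, p = 0.13 and 0.25, where 0.13 is the smallest). Samples of the same number did not deviate together across genes (correlations of 0.07, -0.31, -0.05 and 0.00 for numbers 2 to 5). Such correlations cannot settle whether samples of the same number were handled together. No paired analysis was possible against aSyn Tg 3 mo because the numbers in those columns differ from the labelled ones. The depth of the immunoprecipitated libraries was not analysed here, nor was its part in the calling of weak peaks.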
